A study of Mus musculus with 3 samples.

Results

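The cells described here carry RNA of the MHC class II antigen presentation genes although they were sorted as early progenitors of innate lymphoid cells (ILCs) from mouse bone marrow. Members were chosen by measured RNA: a cell was one when its raw counts of unique transcripts (UMIs) of Cd74, H2-Aa, H2-Ab1 and H2-Eb1 summed to at least 3. It also had to hold at most 1 UMI of Cd79a and Cd79b together, genes of the B cell receptor complex. Members further had fewer than 5 UMIs of the lysozyme gene Lyz2 and fewer than 3 UMIs of Bhlhe41, Cd7 and Asb2 together. By this rule 67 of 716 ILCpro_KO cells and 56 of 1829 ILCpro_WT cells were class II cells, 123 of 2545 in all.

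ILCpro_KO cells came from Tcf7EGFPnull/- mice and ILCpro_WT cells from Tcf7EGFP/+ mice, both on a C57BL/6 background. Both were sorted as Lin- Kit+ 2B4+ a4b7+ cells positive for Tcf7, which encodes TCF-1, by its EGFP reporter. The ILCpro_WT mice thus carried the reporter on 1 allele and were heterozygous. The labels give neither the age and number of the mice nor the part of Tcf7 that the null alleles lack. Each group is 1 library of 10x Chromium v2 chemistry, which counts 3' tags, so no difference has a replicate check and no test was possible. Intervals in parentheses are exact at 95%. They hold the error of counting alone, because the cells of a library are no replicates of its genotype.

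MHC class II molecules are pairs of an alpha and a beta chain that show peptides from taken-up proteins to helper T cells. The invariant chain Cd74 guards the peptide groove until proteases in the endosome remove it, and H2-DM then exchanges the remnant for an antigen peptide while H2-O restrains H2-DM. The coactivator CIITA switches the class II genes on through a shared promoter module with an X box and a Y box. In bone marrow these genes are best known from dendritic cells, B cells and macrophages, and ILCs of some tissues also present antigen by class II.

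Promoters are shown for 4 class II genes, to let the letters of the shared module be seen in genes that chose the cells (H2-Aa and H2-Eb1) and in the exchange factor genes H2-DMb1 and H2-DMb2. The sequences are the 150 bases before the annotated start, on the gene's own strand, from RefSeq on GRCm38.p6. They come from a table with 1 promoter a gene, which held 11 of the 15 class II pathway genes looked up. Capitals mark the Y box letters TGATTGG and, further from the start, the X box letters CTANNAACNGATGATG, which were written down from these promoters.
H2-Aa, alpha chain, chr17:34287824-34287973, minus strand: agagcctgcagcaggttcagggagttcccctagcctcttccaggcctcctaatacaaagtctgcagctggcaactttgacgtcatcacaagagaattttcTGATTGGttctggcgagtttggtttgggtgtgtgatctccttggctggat
H2-Eb1, beta chain, chr17:34305717-34305866, plus strand: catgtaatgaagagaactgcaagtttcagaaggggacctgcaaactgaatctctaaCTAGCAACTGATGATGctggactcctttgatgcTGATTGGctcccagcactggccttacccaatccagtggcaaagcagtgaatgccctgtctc
H2-DMb1, exchange factor beta chain, chr17:34153041-34153190, plus strand: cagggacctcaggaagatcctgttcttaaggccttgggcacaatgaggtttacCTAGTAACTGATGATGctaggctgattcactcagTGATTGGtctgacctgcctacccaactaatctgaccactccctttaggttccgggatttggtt
H2-DMb2, its close copy, chr17:34145099-34145248, plus strand: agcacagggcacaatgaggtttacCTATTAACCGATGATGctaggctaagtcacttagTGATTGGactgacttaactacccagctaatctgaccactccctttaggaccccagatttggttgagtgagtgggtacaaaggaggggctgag
The Y box letters begin 50 bases before the start in H2-Aa, 61 in H2-Eb1, 63 in H2-DMb1 and 92 in H2-DMb2. The X box letters begin 94, 97 and 126 bases before the start in H2-Eb1, H2-DMb1 and H2-DMb2 and do not overlap the Y box. Searched on both strands, the Y box letters were in 2568 of 32851 promoters of 300 bases (7.82%), and the X box letters in 3 (0.00913%), the 3 promoters they were written down from. These matches describe letters and are no measure of binding.

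Class II cells were a larger share of the ILCpro_KO library than of the ILCpro_WT library. They made up 9.36% (7.33 to 11.7) of ILCpro_KO cells and 3.06% (2.32 to 3.96) of ILCpro_WT cells, a ratio of 3.06 (2.11 to 4.44). ILCpro_KO cells were also deeper, with a median of 5309 UMIs and 4384061 UMIs in all, against 2897 and 6094683 in ILCpro_WT, and a fixed number of raw UMIs is easier to reach in a deeper cell. With each cell thinned at random to 2000 UMIs before the rule, the shares were 53 of 700 cells (7.57%) in ILCpro_KO and 38 of 1446 (2.63%) in ILCpro_WT, a ratio of 2.88 (1.86 to 4.49). The ratio lay between 2.75 and 3.61 under the 9 other settings tried. The kept libraries shared 1 barcode sequence, which belonged to no class II cell, and the highest doublet scores held 0 ILCpro_KO and 1 ILCpro_WT class II cell.

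**Figure D1:**
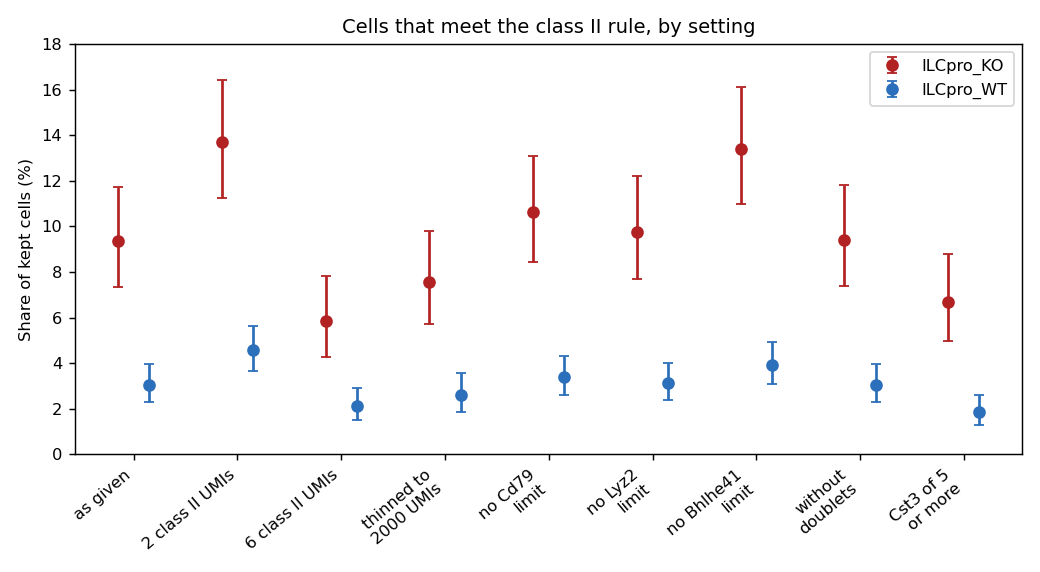
Share of kept cells that meet the class II rule (percent) in ILCpro_KO and ILCpro_WT, as given and under 8 other settings; bars are exact 95% intervals for counting error in 1 library each. ILCpro_KO lies above ILCpro_WT under each setting drawn, at 9.36% against 3.06% as given.

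Most cells of the gate held no class II UMI at all. The sum over the 4 genes was 0 in 60.3% of ILCpro_KO cells and 85.9% of ILCpro_WT cells. It reached 3 in 115 ILCpro_KO cells (16.1%) and 79 ILCpro_WT cells (4.32%) before the limits on other genes. The limit on Bhlhe41, Cd7 and Asb2 removed most, as 36 of these ILCpro_KO cells and 16 of these ILCpro_WT cells exceeded it. Cells over that limit had much class II RNA, with a median sum of 23.5 UMIs in ILCpro_KO and 17.5 in ILCpro_WT, but little Cst3, with a median of 3 UMIs in each library. The Cd79 limit was exceeded by 15 ILCpro_KO and 6 ILCpro_WT cells, and the Lyz2 limit by 4 and 1. Just inside the threshold, at a sum of 3, lay 14 ILCpro_KO and 8 ILCpro_WT class II cells, and just outside, at a sum of 2 within the limits, lay 31 and 28 cells. Cst3 had a median of 5 UMIs in the ILCpro_KO cells just inside and 4 in those just outside, and 1 UMI on both sides in ILCpro_WT, so the edge of the rule marked no step in that gene.

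The genes that chose the cells are given as levels only, as counts in the summed cells scaled to an equal total (CPM). Cd74, the invariant chain, stood at 1661 CPM in ILCpro_KO class II cells and 263 in other ILCpro_KO cells, and at 2391 against 61.5 CPM in ILCpro_WT. H2-Aa, the alpha chain, stood at 544 against 79.7 CPM in ILCpro_KO and 556 against 17.1 CPM in ILCpro_WT. H2-Ab1 and H2-Eb1, the beta chains, stood at 575 and 235 CPM in ILCpro_KO class II cells and 800 and 361 CPM in ILCpro_WT class II cells. The sum per cell ran from 3 through a median of 8 to 90 UMIs in ILCpro_KO and from 3 through 11 to 50 in ILCpro_WT. In most of these cells class II RNA was therefore a small part of the transcriptome.

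Class II pathway genes that the rule did not use were higher in class II cells of both libraries. Of the 7 measured well enough in ILCpro_KO (a mean of at least 20 CPM), 4 were at least 2-fold higher than in other cells and 0 lower, with a median log2 ratio of 1.06. Over all 5545 such genes 1.21% were that much higher and 1.28% lower, with a median of 0.02. In ILCpro_WT 6 of 7 were higher and 0 lower, with a median of 2.00, against 3.76% higher and 2.2% lower of 5320 genes and a median of 0.06. These counts use log2 ratios with 10 CPM added to both sides, while folds are plain ratios of CPM. Of the genes called in either direction 48.6% were higher in ILCpro_KO and 63.1% in ILCpro_WT, against 38.1% and 46.2% with ribosomal protein genes left out of the total, and 50.5% in ILCpro_WT with median-ratio size factors, which moved the median of all genes there to -0.07. H2-DMa (chromosome 17, 34119541 to 34139101), the alpha chain of the peptide exchange factor, stood at 392 against 172 CPM in ILCpro_KO and 429 against 100 CPM in ILCpro_WT. H2-DMb1, its beta chain, was 3.74-fold higher (2.84 to 4.88) in ILCpro_KO and 6.88-fold higher (4.72 to 9.80) in ILCpro_WT. Reads of H2-DMb1 and its near-identical neighbour H2-DMb2 may have been split between the 2 genes in counting. H2-Oa, which encodes a chain of the inhibitor H2-O, was 2.78-fold (1.55 to 4.77) and 2.57-fold higher (1.44 to 4.29), while its partner H2-Ob was at 28.5 against 40.6 CPM and 29.3 against 33.8 CPM. Ifi30, a thiol reductase that unfolds antigens in the endosome, stood at 71.3 against 35.1 CPM in ILCpro_KO and 102 against 10.9 CPM in ILCpro_WT. Ctss, a protease that trims the invariant chain, stood at 114 against 62.8 CPM in ILCpro_KO and 161 against 21.2 CPM in ILCpro_WT.

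Ciita (chromosome 16, 10480059 to 10528418), the switch of the pathway, was barely sampled. It had 6 UMIs in 6 ILCpro_KO class II cells and 4 UMIs in 4 ILCpro_WT class II cells. At 14.3 against 2.27 CPM it was 6.28-fold higher (1.84 to 19.8) than in other ILCpro_KO cells, and at 19.5 against 3.06 CPM 6.39-fold higher (1.57 to 19.4) than in other ILCpro_WT cells. All of these Ciita UMIs lay in cells with at least 10 class II UMIs. March1, a ubiquitin ligase that removes class II from the surface of dendritic cells, had 12 and 6 UMIs in the class II cells of the 2 libraries and was 6.65-fold (2.90 to 14.8) and 24.6-fold (6.84 to 85.6) higher.

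The label of dendritic-like cells was checked against its 6 markers and against lists of defining genes. Cd74 and H2-Aa belong to the rule, and the other 4 markers were higher in both libraries. Cst3 (chromosome 2, 148871722 to 148875692), a protease inhibitor abundant in dendritic cells, stood at 2452 against 630 CPM in ILCpro_KO, 3.89-fold higher (3.61 to 4.18). In ILCpro_WT it stood at 3708 against 342 CPM, 10.8-fold higher (9.96 to 11.8). Aif1, an actin-binding protein of macrophages and dendritic cells, was 5.56-fold higher (3.87 to 7.93) in ILCpro_KO and 33.0-fold higher (21.2 to 51.8) in ILCpro_WT. Batf3, a factor of cross-presenting dendritic cells (cDC1), was 3.89-fold (2.76 to 5.41) and 6.39-fold higher (4.15 to 9.54). Ms4a6c, a membrane protein of the monocyte lineage, was 2.10-fold (1.73 to 2.54) and 7.24-fold higher (5.36 to 9.65). Each of these folds was smaller in ILCpro_KO, and the difference between the libraries' folds was not tested. The other cells include those left out by the limits, with class II sums of up to 145 UMIs in ILCpro_KO and 53 in ILCpro_WT. Against cells within the limits and with no class II UMI, 104 genes were at least 2-fold higher and 77 lower in ILCpro_KO. As given, these were 67 and 71. In ILCpro_WT they numbered 212 and 130, and 200 and 117 as given.

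Regulators of early dendritic cells followed, whereas genes of finished dendritic cells were at or near 0. Irf8, which drives cDC1 and monocyte fate, stood at 1766 against 734 CPM in ILCpro_KO and 1361 against 279 CPM in ILCpro_WT, 2.40-fold (2.22 to 2.61) and 4.89-fold higher (4.29 to 5.55). Spi1, the gene of PU.1, stood at 345 against 249 CPM and 220 against 85.1 CPM. Ifi205, which marks cDC1, stood at 49.9 against 4.54 CPM in ILCpro_KO and 58.6 against 1.19 CPM in ILCpro_WT. The dendritic cell factor Zbtb46 had 2 UMIs in each library's class II cells, and Itgax, the gene of CD11c, had 2 in ILCpro_KO and 0 in ILCpro_WT. Clec9a, a dead-cell receptor of cDC1 and their precursors, had 3 UMIs in ILCpro_KO and 5 in ILCpro_WT class II cells, and the cDC1 chemokine receptor Xcr1 had 0 in both. Siglech of plasmacytoid dendritic cells and the maturation genes Cd80, Cd40 and Fscn1 had 0 UMIs in both. A count of 0 was read as up to 3 cells, which allows a share of cells with a UMI of up to 4.48% of 67 and 5.36% of 56. Because defining genes of dendritic cells were so scarce, the cells are called class II cells here.

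**Figure D2:**
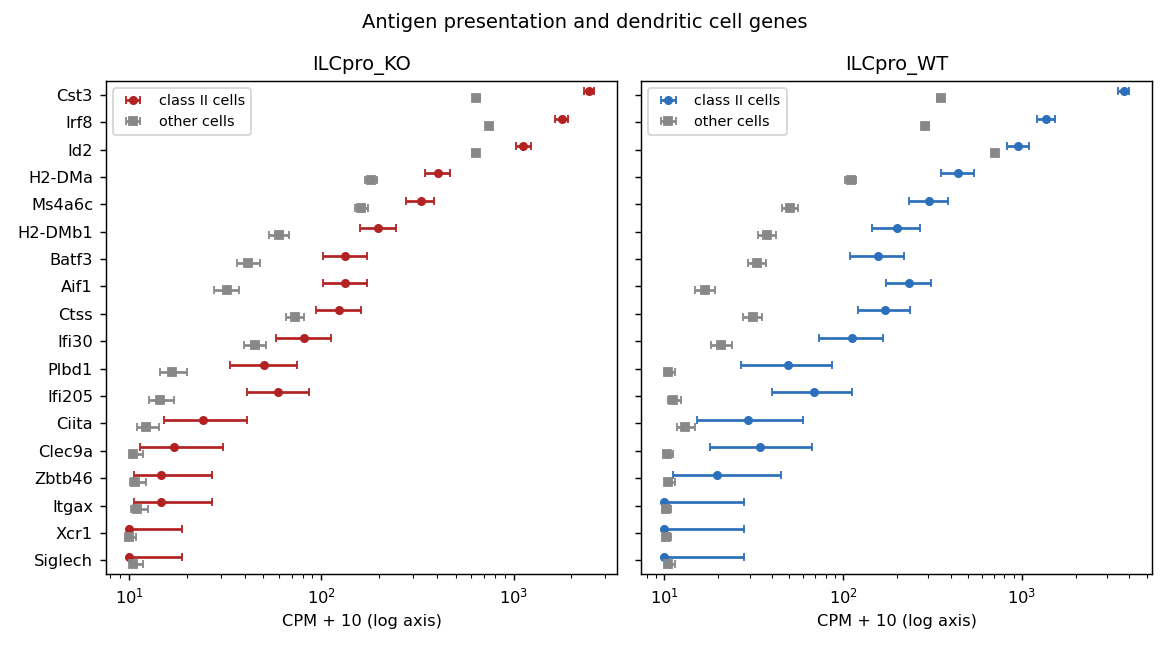
Levels (CPM + 10, log axis) of antigen presentation and dendritic cell genes in class II cells and the other cells, ILCpro_KO on the left and ILCpro_WT on the right; bars are exact 95% Poisson intervals for counting error. Cst3, Irf8 and H2-DMa lie to the right in class II cells of both libraries, for example Cst3 at 2452 against 630 CPM in ILCpro_KO, while Itgax, Xcr1 and Siglech lie at or near 10, which is 0 CPM.

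By lists, conventional dendritic cell genes were higher for 4 of 13 measured in ILCpro_KO (Cst3, Batf3, Irf8 and Plbd1) and 4 of 12 in ILCpro_WT (Cst3, Batf3, Irf8 and Spi1), with 0 lower. Over all genes tested 1.21% were higher and 1.28% lower in ILCpro_KO, and 3.76% higher and 2.2% lower in ILCpro_WT. Of the cDC1 list 3 of 4 measured genes and 4 of 4 were higher, with medians of 1.47 and 2.25. Most of that list was below the level counted, and Xcr1, Cd8a, Itgae and Snx22 had 0 UMIs in both libraries' class II cells. Ifi205 reached the level only through the class II cells, so these counts describe no full cDC1 signature. Batf3 and Irf8 stand in both lists. Markers of other cell types differed by list. B lineage genes other than those of the rule summed to 14.3 CPM in ILCpro_KO class II cells and 34.8 CPM in other ILCpro_KO cells, with 5 of 8 at 0 in the class II cells. In ILCpro_WT they summed to 4.88 against 15.1 CPM, with 7 of 8 at 0. Neutrophil granule genes summed to 1219 against 4187 CPM in ILCpro_KO, with 8 of 9 at least 2-fold lower and a median of -2.64. In ILCpro_WT they summed to 327 against 414 CPM, with 3 of 4 lower and a median of -1.62, which was 1.16 among G1 cells alone. S100a8, a calcium-binding protein of neutrophils, was 24.9-fold lower (12.6 to 57.7) in ILCpro_KO class II cells than in other ILCpro_KO cells, and Ngp, a secondary granule gene, had 0 against 472 UMIs and was at least 16.7-fold lower. The rule's limits on Lyz2, Cd79a and Cd79b bind class II cells and not the other cells. Lower granule, monocyte and B lineage values may thus follow in part from the choice of cells.

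Monocyte genes split. In ILCpro_KO 3 of 12 were higher (Ms4a6c, Aif1 and Mpeg1) and 3 lower (Ly6c2, F13a1 and Ccl9), and in ILCpro_WT 4 of 9 were higher and 0 lower. Ly6c2, the surface antigen of inflammatory monocytes, stood at 61.8 against 336 CPM in ILCpro_KO but 78.1 against 37.4 CPM in ILCpro_WT. The ILCpro_WT class II level rested on 16 UMIs in 7 cells, of which 1 cell held 8. Csf1r, the macrophage growth factor receptor, had 1 UMI in each library's class II cells. Of the plasmacytoid list 1 gene, Runx2, was higher in each library, at 183 against 54.8 CPM in ILCpro_KO and 156 against 31.1 CPM in ILCpro_WT. Of the remaining lists in ILCpro_KO, mast cell and basophil genes were lower for 4 of 5 and haemoglobin and other erythroid genes for 4 of 5. In ILCpro_WT 2 of 4 mast cell genes were lower. The cDC2 list had 0 of 3 higher in ILCpro_KO and 1 of 3, Klf4, in ILCpro_WT, and 0 of the 10 maturation genes was measured well enough to count. Interferon response genes were higher for 0 of 7 and 2 of 7. All these counts stand against 1.21% higher and 1.28% lower of all genes in ILCpro_KO, and 3.76% and 2.2% in ILCpro_WT. Cells of the gate other than class II cells are mixed themselves, so these contrasts describe distance from that mixture.

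Other leading genes were shared in kind between the libraries. Psap, a lysosomal saposin precursor, stood at 867 against 359 CPM in ILCpro_KO and 1025 against 186 CPM in ILCpro_WT. Pld4, an endosomal nuclease, was 3.32-fold (2.40 to 4.54) and 13.9-fold higher (8.76 to 21.7), and Rnase6, a secreted ribonuclease, 2.79-fold (2.15 to 3.59) and 10.7-fold higher (7.39 to 15.4). Pak1, a kinase of the actin skeleton, and Ms4a4c, a relative of Ms4a6c, were also among the 15 highest of each library. Aif1, Cst3, H2-DMb1 and Psap completed the overlap. Ctsh and Lgals3, a lysosomal protease and a galectin, were among the 15 highest in ILCpro_WT, at 210 against 19.2 CPM and 229 against 27.0 CPM. Among the 15 lowest of each library, Mcpt8, a basophil protease, stood at 40.4 against 383 CPM in ILCpro_KO and at 0 against 122 CPM in ILCpro_WT, where it was at least 8.33-fold lower.

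Genes of the ILC programme were in part lower in class II cells than in other cells. In ILCpro_KO 5 of 13 were lower and 0 higher (median -0.68), and in ILCpro_WT 3 of 20 were lower and 0 higher (median -0.51), against 1.28% and 2.2% lower of all genes. Tcf7 stood at 14.3 against 61.8 CPM in ILCpro_KO class II and other cells, 4.34-fold lower (1.96 to 11.9), on 6 UMIs. In ILCpro_WT it stood at 151 against 370 CPM, 2.44-fold lower (1.72 to 3.61). Zbtb16, whose product PLZF marks committed ILC precursors, stood at 200 against 273 CPM in ILCpro_WT, and Il7r, the interleukin 7 receptor chain, at 102 against 95.9 CPM. Id2, an E protein inhibitor needed by ILCs and by cDC1, was higher, at 1112 against 624 CPM in ILCpro_KO and 942 against 703 CPM in ILCpro_WT. Of the genes behind the sort, Itga4 and Itgb7, the chains of a4b7, stood at 416 and 209 CPM in ILCpro_KO class II cells, and Cd244, the gene of 2B4, at 95.0 CPM. Kit, the stem cell factor receptor, was low, at 16.6 against 23.5 CPM in ILCpro_KO and 48.8 against 66.7 CPM in ILCpro_WT.

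In cells thinned to 1000 UMIs each, which left out 4 other ILCpro_WT cells, the same pattern was seen per cell for Cst3, Irf8 and Aif1. A Cst3 UMI was found in 71.6% of ILCpro_KO class II cells and 37.6% of other ILCpro_KO cells, and in 69.6% against 23.6% in ILCpro_WT. Irf8 was found in 74.6% against 37.4% in ILCpro_KO and 53.6% against 14.9% in ILCpro_WT. Aif1 was found in 13.4% against 2.77% and 25.0% against 0.622% (32.8% against 8.17% and 39.3% against 1.58% unthinned). Tcf7 was found in 2.99% (0.364 to 10.4) against 7.24% in ILCpro_KO and 17.9% (8.91 to 30.4) against 29.7% in ILCpro_WT. Both of these intervals include the share of the other cells. Unthinned, Tcf7 was found in 5.97% against 23.9% and 30.4% against 55.1%. The median depths were 5891 UMIs in ILCpro_KO class II cells against 5250 in the others, and 3037 against 2889 in ILCpro_WT.

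More class II cells than other cells were called outside G1 in both libraries. Of the measured S phase and mitosis genes, 0 were at least 2-fold higher in ILCpro_KO class II cells, while a few were in ILCpro_WT. The phases were called from these same gene lists, so both readings rest on the same genes. Cells called outside the G1 phase were 76.1% of ILCpro_KO class II cells against 59.9% of the others, and 60.7% against 36.3% in ILCpro_WT. The 25 S phase genes had median log2 ratios of 0.41 in ILCpro_KO and 0.18 in ILCpro_WT, with 0 and 2 at least 2-fold higher, against 1.21% and 3.76% of all genes. Of the mitosis genes 0 of 24 and 3 of 22 were higher, against the same 1.21% and 3.76% of all genes. Mki67, the antigen of cycling cells, stood at 185 against 124 CPM in ILCpro_KO and 215 against 86.3 CPM in ILCpro_WT. Among G1 cells alone the class II pathway median was 1.64 in ILCpro_KO and 1.99 in ILCpro_WT.

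Class II cells differed widely among themselves in Cst3. Cst3 ran from 0 through a median of 9 to 108 UMIs in ILCpro_KO class II cells and from 0 through 10 to 53 in ILCpro_WT class II cells, while other cells had medians of 2 and 1. A split at 5 Cst3 UMIs, chosen after the values were seen, put 48 of 67 ILCpro_KO cells (71.6%) and 34 of 56 ILCpro_WT cells (60.7%) in the upper class. Among other cells 26.5% in ILCpro_KO and 4.29% in ILCpro_WT reached 5. The upper class was not deeper, with a median of 5330.5 UMIs against 7123 in the lower class in ILCpro_KO, and 2956 against 3409 in ILCpro_WT.

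In ILCpro_WT the lower Cst3 class carried the ILC programme and the upper class the dendritic genes. At least 3 UMIs of Tcf7, Zbtb16, Gata3, Rora, Il7r and Tox2 together were found in 4 of 34 upper cells and 18 of 22 lower cells. Most other ILCpro_WT cells also reached this, 1128 of 1773 (63.6%), so it did not set the lower class apart from the rest of the gate. Over all genes tested 15.3% were at least 2-fold higher in the upper class and 16.3% lower. Of the ILC programme 14 of 18 genes were lower in the upper class and 0 higher, with a median of -1.98. Tcf7 stood at 60.1 CPM in upper against 271 CPM in lower cells, and Rora, a factor of the group 2 ILC lineage, at 94.5 against 395 CPM. Il7r stood at 17.2 against 215 CPM, and Ltb, a lymphotoxin chain of lymphoid tissue inducer cells, at 77.3 against 418 CPM. Conventional dendritic genes other than Cst3 were higher in the upper class for 8 of 11 and lower for 0, and Irf8 stood at 2070 against 429 CPM. Aif1 stood at 369 against 33.9 CPM and Ms4a6c at 490 against 33.9 CPM, while Batf3 was nearer even at 163 against 124 CPM. H2-DMa stood at 636 against 158 CPM and Cd74 at 3435 against 1017 CPM. Mitosis genes were higher in the upper class for 16 of 23, with a median of 1.42, as was Ube2c of the mitotic ubiquitin machinery at 266 against 22.6 CPM.

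Class II RNA also lay in ILCpro_WT cells that had ILC transcripts and hardly any Cst3. There were 7 ILCpro_WT cells with at least 10 class II UMIs and fewer than 5 Cst3 UMIs, with class II sums of 30, 22, 14, 12, 11, 11 and 11 and 1596 to 3707 UMIs in all. Il7r was found in 6 of these cells, Ltb in 5, and at least 3 UMIs of the 6 ILC genes in 6. In ILCpro_KO 1 cell was of this kind, with a class II sum of 10. Whether doublets or free RNA enter these cells was not tested.

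**Figure D3:**
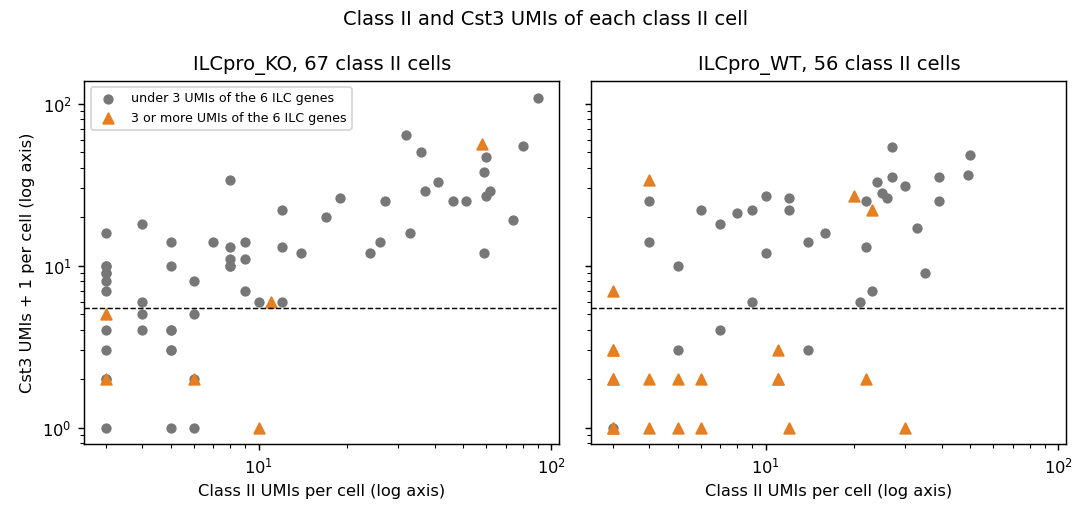
Class II UMIs (log axis) and Cst3 UMIs + 1 (log axis) of each class II cell, ILCpro_KO on the left and ILCpro_WT on the right; triangles are cells with at least 3 UMIs of Tcf7, Zbtb16, Gata3, Rora, Il7r and Tox2 together, and the dashed line is the split at 5 Cst3 UMIs. Triangles gather below the line in ILCpro_WT (18 of 22 cells below it) and are few in ILCpro_KO (6 of 67 cells in all).

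In ILCpro_KO the Cst3 classes differed in dendritic genes in the same direction but had few ILC transcripts in either. At least 3 UMIs of the 6 ILC genes were found in 2 of 48 upper cells and 4 of 19 lower cells, and in 120 of 649 other ILCpro_KO cells (18.5%). Over all genes tested 7.1% were higher and 8.15% lower in the upper class. Aif1 had 52 UMIs in upper cells and 0 in lower cells, at least 7.77-fold higher in CPM, and Irf8 stood at 2299 against 576 CPM. Class II pathway genes outside the rule were higher for 7 of 8 and lower for 1. Dntt, the terminal transferase of early lymphoid progenitors, stood the other way at 6.88 CPM in upper against 161 CPM in lower cells, as did Sox4, a factor of lymphoid progenitors, at 86.0 against 330 CPM. The 23 Dntt UMIs of both classes lay in 5 cells, and 1 cell held 11 of them. Of the ILC programme 6 of 11 measured genes were lower in the upper class.

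Cells with more class II RNA carried more of the other antigen presentation genes, in both libraries. At least 10 class II UMIs were held by 28 of 67 ILCpro_KO and 31 of 56 ILCpro_WT class II cells, and the other cells of each held 3 to 9. Of class II pathway genes outside the rule 8 of 10 were higher in the upper band in ILCpro_KO and 7 of 10 in ILCpro_WT, with 0 lower, against 6.43% and 14.9% of all genes tested higher and 5.45% and 10.4% lower. Cst3 stood at 5567 CPM in the upper band against 930 CPM in the lower band of ILCpro_KO, and at 6130 against 1651 CPM in ILCpro_WT. Aif1 stood at 326 against 24.8 CPM and 404 against 72.2 CPM. H2-DMa stood at 738 against 223 CPM in ILCpro_KO. The upper band was the shallower one, with median depths of 4233 against 7109 UMIs in ILCpro_KO and 2797 against 3628 in ILCpro_WT.

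Between genotypes, class II cells had far less of the ILC programme in ILCpro_KO and about as much of the class II exchange and dendritic genes. Of the ILC programme 12 of 17 measured genes were at least 2-fold lower in ILCpro_KO class II cells than in ILCpro_WT class II cells and 0 higher, with a median of -2.50. Over all 5427 genes tested 4.81% were higher and 2.97% lower, with a median of 0.07. Class II pathway genes outside the rule were higher for 0 and lower for 0 of 9 (median -0.03), and conventional dendritic genes higher for 1 of 13, Kmo, and lower for 0. Since the members are cells in a mixture, fewer cells with a transcript and less of it per cell are both contained in these levels.

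Tcf7 (chromosome 11, 52252371 to 52283014), the targeted gene, had 6 UMIs in 4 of 67 ILCpro_KO class II cells and 31 UMIs in 17 of 56 ILCpro_WT class II cells. At 14.3 against 151 CPM it was 10.6-fold lower (4.36 to 31.1). Whether the 3' tags lie in the part lost is not given, so these UMIs do not check the allele. Zbtb16 stood at 16.6 against 200 CPM, with an interval of 5.34-fold to 31.8-fold lower, and Rora at 16.6 against 224 CPM, 13.5-fold lower (6.05 to 35.4). Gata3, needed for all helper-like ILCs, stood at 45.1 against 215 CPM, 4.76-fold lower (2.72 to 8.62). It was found in 14 of 67 and 21 of 56 cells. Il7r had 0 against 21 UMIs and was at least 14.4-fold lower, and Tox2, a factor of the TOX family, had 0 against 22 UMIs and was at least 15.1-fold lower. Bcl11b, a T cell and ILC2 factor, had 0 against 17 UMIs and was at least 11.6-fold lower. Ikzf2, the gene of Helios, stood at 45.1 against 303 CPM. Ccl5, which cytotoxic lymphocytes secrete, was 12.5-fold lower in ILCpro_KO at 45.1 against 566 CPM (7.68 to 21.6). Among ILC genes that were not lower, Id2 stood at 1112 against 942 CPM and Nfil3, an early ILC factor that cDC1 also need, at 159 against 82.9 CPM, 1.92-fold higher (1.11 to 3.49).

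The same genes were also lower in the rest of the ILCpro_KO gate, so the direction was not restricted to class II cells. In the other cells Tcf7 stood at 61.8 CPM in ILCpro_KO and 370 CPM in ILCpro_WT, Zbtb16 at 54.2 and 273 CPM, and Rora at 51.5 and 457 CPM. Gata3 stood at 78.5 and 343 CPM there.

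The difference in summed levels of ILC genes was seen in both Cst3 classes, in the upper class through few cells. Of the upper cells 4 of 34 in ILCpro_WT and 2 of 48 in ILCpro_KO held at least 3 UMIs of the 6 ILC genes. In 67.6% and 77.1% of upper cells the 6 genes had 0 UMIs. The upper-class folds thus describe no change across that class. In upper cells 9 of 14 ILC genes were lower in ILCpro_KO than in ILCpro_WT and 1 higher, against 5.46% lower and 8.22% higher of all genes tested. In lower cells 13 of 18 were lower and 1 higher, against 10.1% and 11.7%. Zbtb16 stood at 13.8 against 112 CPM in upper cells (8.11-fold lower, 2.51 to 34.1) and at 23.0 against 316 CPM in lower cells (13.7-fold lower, 4.24 to 70.6, on 3 UMIs in ILCpro_KO). Tcf7 had 1 against 7 UMIs in upper cells and stood at 38.4 against 271 CPM in lower cells, 7.06-fold lower (2.64 to 23.7). Of the ILCpro_WT upper cells, 1 cell held 4 of the 7 Tcf7 UMIs and another held 6 Zbtb16 UMIs. For Gata3 in upper cells, at 34.4 against 85.9 CPM, the interval ran from 0.932-fold to 6.68-fold lower and so included no difference. In the lower class, early lymphoid genes were higher in ILCpro_KO for 5 of 7, among them Dntt at 161 against 33.9 CPM (4.76-fold higher, 1.42 to 24.9, on 3 UMIs in ILCpro_WT), and lower for 1, Il7r, with 0 against 19 UMIs. Dntt was found in only 5 ILCpro_KO class II cells, 1 of which held 11 of 23 UMIs, and in 1 ILCpro_WT class II cell.

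Genes that marked the cells went no single way between genotypes. H2-DMa stood at 392 CPM in ILCpro_KO against 429 CPM in ILCpro_WT class II cells, H2-DMb1 at 188 against 190 CPM, and Batf3 at 124 against 146 CPM. Ms4a6c stood at 318 against 293 CPM. Cst3 was 1.51-fold lower (1.38 to 1.66) and Aif1 1.82-fold lower (1.19 to 2.75). Irf8 was 1.30-fold higher (1.13 to 1.49) and Spi1 1.57-fold higher (1.12 to 2.24). Levels of the genes of the rule are not compared between the genotypes, since the same sum of 3 UMIs admits cells with a smaller share of class II RNA in the deeper library. The median share was 1442 CPM per cell in ILCpro_KO and 3493 CPM in ILCpro_WT. Cst3 and Aif1 were higher in cells with more class II RNA, so their lower values carry the same limit. Among cells with at least 10 class II UMIs, whose levels are given above, the libraries lay nearer each other in both genes.

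Some replication genes were higher in ILCpro_KO class II cells than in ILCpro_WT class II cells. Of 25 S phase genes 7 were at least 2-fold higher and 0 lower, with a median of 0.60, and 0 of 23 mitosis genes were, against 4.81% higher of all genes. The other cells of the ILCpro_KO gate were also more often called outside G1, at 59.9% against 36.3% in ILCpro_WT. Rrm1, a subunit of ribonucleotide reductase, stood at 147 against 48.8 CPM, and Mcm5 and Mcm6, parts of the replicative helicase, at 173 against 63.4 CPM and 216 against 102 CPM. Mcm6 was found in 42 of 67 ILCpro_KO and 11 of 56 ILCpro_WT class II cells. Their median depths were 5891 and 3037 UMIs, so a UMI is easier to find in the ILCpro_KO cells. In the upper Cst3 class 13 of 25 S phase genes were higher, against 8.22% of all genes, and Mcm6 stood at 241 against 60.1 CPM (4.01-fold higher, 1.85 to 10.3). In the lower class 4 of 25 S phase genes were higher and 2 lower, near the 11.7% and 10.1% of all genes there, while 14 of 24 mitosis genes were higher. Ccnd2, a cyclin of G1, stood at 884 against 283 CPM, 3.12-fold higher (2.36 to 4.19), and was found in 58 of 67 and 24 of 56 cells. Mki67 was not higher, at 185 against 215 CPM.

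Granule genes of myeloid progenitors were higher too, in large part through 1 cell. Mpo, the myeloperoxidase gene, stood at 185 against 24.4 CPM, and Ctsg, cathepsin G, at 152 against 9.76 CPM. Of these ILCpro_KO UMIs 1 cell held 48 of 78 for Mpo, 53 of 64 for Ctsg and 24 of 29 for Elane, the elastase gene. That cell had 13205 UMIs, a class II sum of 3, 9 Cst3 UMIs and 0 Irf8 UMIs. Without it Mpo stood at 73.6 against 24.4 CPM (3.02-fold higher, 1.16 to 9.96), Ctsg at 27.0 against 9.76 CPM (2.77-fold, 0.603 to 25.7, on 2 UMIs in ILCpro_WT) and Elane at 12.3 against 9.76 CPM. The direction of Ctsg turned with a higher threshold, to a log2 ratio of -0.48 at 6 class II UMIs and -0.86 at 10. Prtn3, proteinase 3, did not rest on it, at 703 against 263 CPM with the cell and 653 against 263 CPM without it (2.48-fold higher, 1.84 to 3.38). It was found in 47 of 67 and 16 of 56 cells, with the ILCpro_KO cells the deeper ones. Without that cell 12 of 17 ILC genes were still lower and 8 of 25 S phase genes higher, against 2.42% lower and 4.69% higher of all genes. In the upper Cst3 class without it 9 of 14 ILC genes were lower and 13 of 25 S phase genes higher, against 5.36% lower and 8.06% higher.

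**Figure D4:**
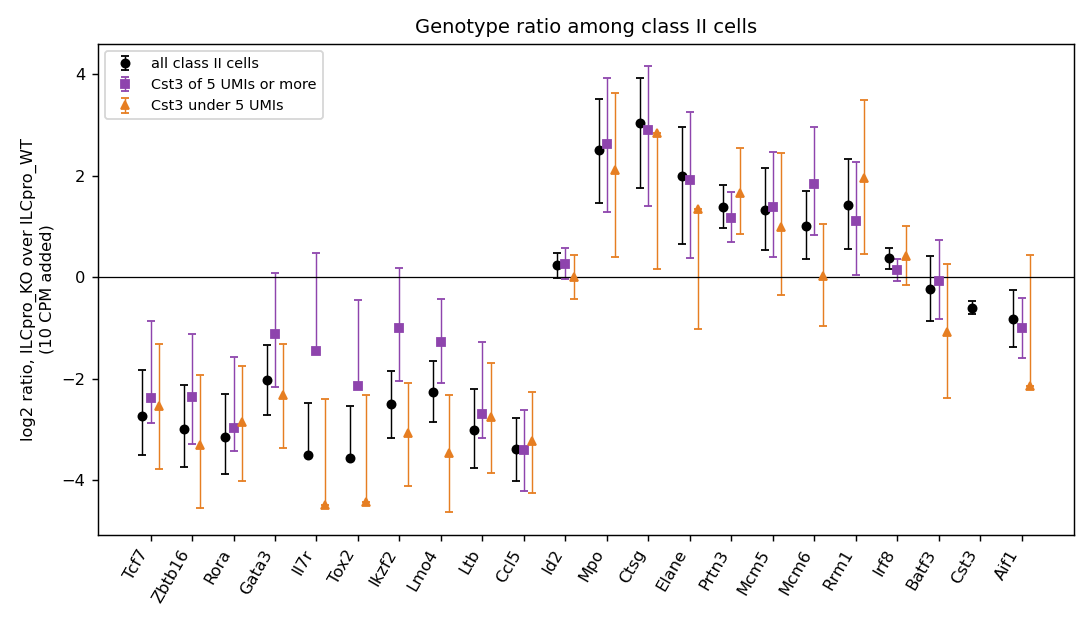
Log2 ratio of ILCpro_KO over ILCpro_WT (10 CPM added) among all class II cells (circles), those with at least 5 Cst3 UMIs (squares) and those with fewer (triangles), by gene; bars are exact 95% intervals for counting error, and Cst3, which made the split, is drawn for all cells only. ILC genes such as Zbtb16 (16.6 against 200 CPM) lie below 0 in each class, while Mpo, Ctsg and Elane lie above 0 with 48 of 78, 53 of 64 and 24 of 29 ILCpro_KO UMIs in 1 cell.

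Cells with an Mpo UMI were a smaller share of class II cells than of other cells, though the ILCpro_WT interval and the ILCpro_KO upper bound reach the other cells' shares. An Mpo UMI was found in 20 of 67 ILCpro_KO class II cells (29.9%, 19.3 to 42.3) against 39.4% of other ILCpro_KO cells. In ILCpro_WT it was found in 3 of 56 (5.36%, 1.12 to 14.9) against 212 of 1773 other cells. The limit on Lyz2 binds class II cells alone, so these shares are not of cells chosen alike. Median depths were 5891 against 5250 UMIs in ILCpro_KO and 3037 against 2889 UMIs in ILCpro_WT. In cells thinned to 1000 UMIs the shares were 5.97% (1.65 to 14.6) against 19.6% in ILCpro_KO and 3.57% against 5.37% in ILCpro_WT. At equal depth the ILCpro_KO and ILCpro_WT class II shares were thus close to each other, on 4 and 2 cells. Of the 20 ILCpro_KO cells 14 had exactly 1 Mpo UMI, and their median depth was 8357 UMIs against 4899 in the 47 cells without one.

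Cst3 and Irf8 UMIs were found in most cells with and without Mpo, while monocyte and antigen presentation genes differed between them. Cst3 was found in 19 of 20 cells with Mpo and 44 of 47 without, and Irf8 in 18 of 20 and 44 of 47. At least 5 Cst3 UMIs were found in 13 of 20 and 35 of 47, although cells with Mpo were deeper (medians of 8357 against 4899 UMIs). Cells with Mpo also held less class II RNA, with a median of 593 against 1937 CPM per cell. Of class II pathway genes outside the rule 0 of 8 were higher in cells with Mpo and 3 lower (H2-DMb1, Ctss and Ifi30), and of monocyte genes 6 of 10 were lower, against 4.19% higher and 4.98% lower of all genes tested. With median-ratio size factors 35.0% of the called genes were higher in cells with Mpo, against 45.7% as given. Aif1 stood at 59.3 against 167 CPM, and Ccr2, the receptor that brings monocytes out of the marrow, at 53.4 against 182 CPM. Fcer1g, the Fc receptor gamma chain, stood at 119 against 385 CPM. Ly6c2 had 0 UMIs in cells with Mpo and stood at 103 CPM in those without, at least 5.80-fold lower.

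Granule genes beside Mpo again rested on 1 cell. Ctsg had 62 UMIs in cells with Mpo and 2 in those without, and 9 against 2 without the cell of most Mpo (57.9 against 7.93 CPM, 7.30-fold higher, 1.51 to 69.4). Ms4a3, a membrane protein of granulocyte and monocyte progenitors, had 15 against 0 UMIs, of which that cell held 14, and Cebpe, a granule gene factor, had 8 against 0, all in that cell. Prtn3 was nearly even, at 765 against 662 CPM with the cell and 637 against 662 CPM without it. Lower values were also seen without it. Aif1 was then 2.59-fold lower (1.28 to 5.79) and Ly6c2 at least 5.34-fold lower in the 19 cells, and 6 of 10 monocyte genes and 2 of 8 class II pathway genes were lower, against 4.76% of all genes (4.64% higher). Nkg7, a granule membrane protein of cytotoxic lymphocytes that early myeloid progenitors also carry, stood at 251 against 143 CPM (1.76-fold higher, 1.09 to 2.85).

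**Figure D5:**
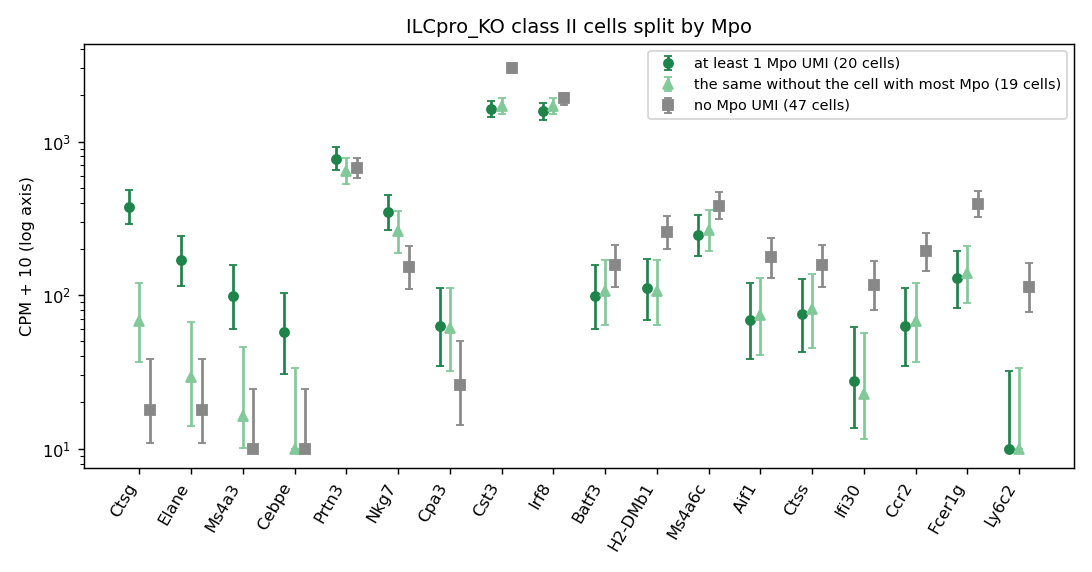
Levels (CPM + 10, log axis) in ILCpro_KO class II cells with at least 1 Mpo UMI (20 cells), the same without the cell of most Mpo (19 cells), and with no Mpo UMI (47 cells); bars are exact 95% Poisson intervals for counting error. Ctsg drops to 57.9 CPM once that cell is left out, against 7.93 CPM in cells without Mpo, while Aif1 and Fcer1g stay below the cells without Mpo.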

How the data were processed

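The authors deposited a matrix of raw UMI counts per gene and cell for each library. Per the submitters' processing notes, the tools were Cell Ranger 2.0.1, STAR 2.5.1b and bcl2fastq 2.17, with mm10 as the build. Cells with at least 500 genes and at most 10% mitochondrial UMIs were kept. The members and the gene lists were chosen with earlier results of these data known. Counts were summed over the cells of a group and divided by their total (CPM), and list counts used genes with a mean of at least 20 CPM outside the rule. A gene with 0 UMIs in a group was set at 3 UMIs for a bound. Named genes are members of the lists, genes planned for shares, and, among genes of at least 100 CPM, the 15 with the highest and the 15 with the lowest log2 ratio, leaving out ribosomal, mitochondrial and unnamed genes. The splits by Cst3 and without the cell of most Mpo were chosen after seeing the data. Doublet scores came from Scrublet, with the highest 0.8% per 1000 barcodes removed in an alternative. Gene positions are from GENCODE vM21. Python 3.11.15, numpy 2.4.6, scipy 1.17.1, pandas 2.3.3 and scanpy 1.11.5 were used, and the scripts were tested on simulated data.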

Additional observations from a re-analysis of the deposited data

Results flagged for a closer look

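Cells that meet the class II rule were also found in the ALP library, which enters no comparison above. ALP cells were sorted from Tcf7EGFP/+ marrow by the same Lin- Kit+ 2B4+ gate but a4b7-, and were Flt3high and IL-7Ra+. They held 23 such cells of 810, a share of 2.84% (1.81 to 4.23), above the level that a count of 0 allows. Their class II sums were low, with a median of 3 UMIs and a highest value of 12, and 1 cell reached 10. Cst3 reached 5 UMIs in 4 of the 23.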

How the results depend on the processing

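No paired analysis was possible because each group is 1 library, and for the same reason no replicate could be left out. The share of class II cells moved to 13.7% in ILCpro_KO and 4.59% in ILCpro_WT at a threshold of 2 UMIs, to 5.87% and 2.13% at 6 UMIs, to 6.70% and 1.86% with at least 5 Cst3 UMIs (added after seeing the data), and to 13.4% in ILCpro_KO without the limit on Bhlhe41, Cd7 and Asb2. Genes at least 2-fold apart numbered 138 between class II and other cells in ILCpro_KO, 317 in ILCpro_WT, 422 between genotypes and 499 between cells with and without Mpo. In that order they numbered 253, 571, 692 and 870 with 1 CPM added, 249, 706, 968 and 1283 with no minimum level, and 70, 135, 112 and 139 at a mean of at least 50 CPM. They numbered 247, 571, 699 and 947 without ribosomal genes in the total, 337, 738, 771 and 1134 at a threshold of 6 UMIs, 1210, 911, 1643 and 3293 among G1 cells, and 496, 841, 1143 and 1691 after thinning to 2000 UMIs. Means of per-cell CPM gave 210 and 510 for the comparisons with other cells. Between genotypes there were 722 and 1179 in the Cst3 classes and 970 with at least 10 class II UMIs. Reading Mpo at 1000 UMIs gave an Mpo share of 5.97% and 1351 genes. Reversed log2 values were 0.78 for Hbb-bs in ILCpro_KO and 1.16 for the granule median in ILCpro_WT (both G1 cells), between genotypes -0.48 for Ctsg and 0.099 for Fbxw4 (threshold of 6) and -0.86 for Ctsg, 0.14 for Hdac7 and 0.14 for Fbxw4 (at least 10), and in the Mpo split -0.019 for the granule median (no minimum), -1.73 for Igfbp4, -2.49 for Ppig, -2.49 for Sar1a and -2.99 for Cnih1 (G1 cells, 2 against 14), -0.16 for Cnih1 (thinned), and -0.0059 for Gart and -0.88 for Tes (Mpo at 1000 UMIs). Fewer cells raise these counts by construction in the G1 and threshold settings, and for the rest the cause was not tested.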
